A study of Homo sapiens with 8 samples.

Results

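Purinergic receptors and ectonucleotidases form the system by which microglia, the resident macrophages of the brain, read extracellular nucleotides. The set described here holds 10 genes of the 78899 in the count table, taken by symbol: P2RY12, P2RY13, P2RY14, P2RY6, P2RX4, P2RX7, ENTPD1, NT5E, ADORA2A and ADORA3. Each matched a single row or, where several Ensembl entries carried the symbol, the entry with the most counts.

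ATP and ADP leaving active or damaged cells act on G protein-coupled P2Y receptors and on P2X receptors, which are ATP-gated cation channels. Ectonucleotidases on the cell surface cut the signal back in steps. The enzyme CD39, encoded by ENTPD1, takes ATP and ADP to AMP, and CD73, encoded by NT5E, takes AMP to adenosine, which acts on its own family of receptors. In microglia, P2RY12 is known for steering cell processes towards sources of ADP and is widely used as a marker of the resting state.

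Bulk RNA was sequenced from GFP-labelled microglia made from H1, an established human embryonic stem cell line, although the labels also describe the cells as derived from induced pluripotent cells. The microglia were grown alone (mono-culture, 4 libraries) with IL-34 at 100 ng/mL and M-CSF at 10 ng/mL given 3 times per week, or in tri-culture (4 libraries) without added cytokine. Medium was changed 3 times per week in both groups. All cultures were harvested 2 weeks after plating, and GFP-positive cells were sorted by fluorescence. The labels used here do not say which other cells the tri-culture held, and the presence of those cells and the absence of the cytokines changed together, so the effects of each cannot be told apart. Each of 4 independent batches gave 1 library per group, all from 1 line, so the p-values speak only for the spread between those batches.

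Libraries held 17037481 to 33363972 counts. Levels are given as CPM, the counts of a gene relative to the library total, scaled with TMM factors (scaled CPM), with the SD over 4 libraries. A gene was called where the Benjamini-Hochberg adjusted p of edgeR's quasi-likelihood test, taken over all 16249 genes tested, was under 0.05. Of the microglia markers, CSF1R stood at 1391 and 1822 scaled CPM in mono-culture and tri-culture and was not called (edgeR adjusted p = 0.174). Only 1 of 7, CX3CR1, was called. It was higher in tri-culture, at 120 ± 30.7 and 833 ± 214 scaled CPM (edgeR log2 fold change 2.79 ± 0.22 SE, adjusted p = 1.77e-06). The 7 together ran from 2845 to 3452 and from 3460 to 4842 scaled CPM. Summed markers of most other cell types were also higher in tri-culture, but not those of neurons. Of 12 astrocyte genes, 9 were called higher, with summed levels of 738 to 981 scaled CPM in mono-culture and 1163 to 1370 in tri-culture. The largest part of that sum was GLUL, at 591 and 544 scaled CPM, which was not called. Summed levels of dendritic cell genes ran from 71.0 to 94.1 and from 336 to 485 scaled CPM, with 5 of 9 called higher, and those of monocyte genes from 188 to 215 and from 220 to 472, with 5 of 7 called higher and 1 lower. The summed oligodendrocyte lineage genes, mostly MBP, ran from 152 to 183 and from 210 to 294 (3 of 6 called higher). The summed mesenchymal and endothelial genes, mostly PECAM1, ran from 260 to 353 and from 558 to 875 (4 of 8 tested, 1 called higher). COL3A1, DCN and LUM had 186, 13 and 13 counts in mono-culture and 10897, 2442 and 1375 in tri-culture, with no count in tri-culture library 2. COL3A1 was not called (edgeR adjusted p = 0.0505), and DCN and LUM were not tested. COL1A2, with 1285 and 1288 counts, was not called. The summed neuronal genes, mostly MAP2 and SYT1, ran from 23.5 to 44.0 and from 12.7 to 27.3 (4 of 10 tested, 1 called higher and 1 lower). SYT1 was called lower (15.7 and 4.00 scaled CPM), and MAP2 was not called (15.3 and 12.2). STMN2 was called higher, with 171 counts in tri-culture. DCX, SNAP25, SLC17A6 and GAD1, too low to test, had 113, 28, 10 and 3 counts there. GFAP stood at 0.296 and 167 scaled CPM, while AQP4, ALDH1L1, SNAP25, STMN2, DCX, SLC17A6, GAD1 and FLT3 had no count in mono-culture. The part of these other cells in the results on purinergic genes was not tested.

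Of the 10 genes, 4 rose in tri-culture (P2RY12, P2RY13, ENTPD1 and ADORA3), 1 fell (P2RX4), and 2 were tested and not called (P2RY6 and P2RX7). The other 3, P2RY14, NT5E and ADORA2A, were too low to pass the filter on counts and were not tested. Over all tested genes, 13.9% were called higher and 13% lower, 26.9% in all, and the groups did not overlap in 29.4%. The groups did not overlap for the 5 called genes. The set was chosen with earlier results of these data known, so its share of calls is a description. Scaling by library size alone moved the split of all calls from 51.7% higher to 63.0% higher and their median log2 difference, over every tested gene, from 0.02 to 0.12, with the same 4 and 1 counts among the purinergic genes.

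**Figure D1:**
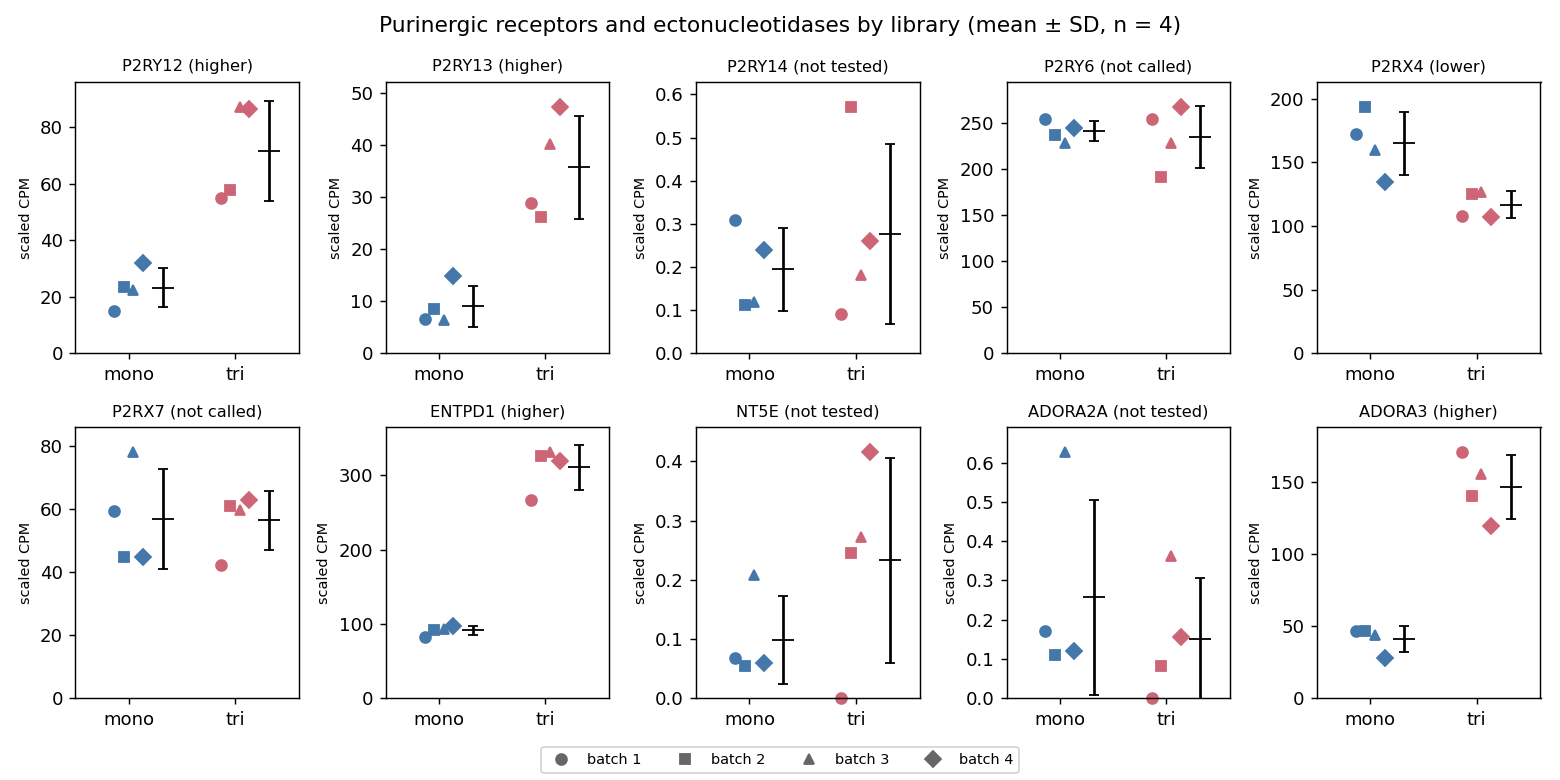
Scaled CPM (vertical axes, each from 0) of the 10 genes in every library, mono-culture in blue and tri-culture in red, with a symbol for each batch and the mean and SD of 4 libraries at the side. P2RY12, P2RY13, ENTPD1 and ADORA3 sit higher in all tri-culture libraries than in any mono-culture library, P2RX4 sits lower, and the bottom of the SD bar of ADORA2A in tri-culture is cut at 0.

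Promoter sequence is shown for 4 of the genes because 3 of them (P2RY12, P2RY13, ADORA3) rose while P2RY14, a close relative in the same locus, stayed near 0. Sequences are from RefSeq on GRCh38.p14, which listed a start for 8 of the 10 genes, and the first start listed was used. Each window covers the 250 bases before the start, less any base in an exon of the gene's strand in GENCODE 29. The window of ENTPD1, which also rose, kept only 44 bases and is not printed. Capitals mark matches, on either strand, to the PU.1 core GAGGAAG or the RUNX core TGTGGT, short motifs of factors that are abundant in macrophages. They run from position -250 to -60 for P2RY12 (chr3:151384813-151385003, minus strand), to -1 for P2RY13 (chr3:151329550-151329799, minus strand), to -128 for ADORA3 (chr1:111503761-111503883, minus strand) and to -1 for P2RY14 (chr3:151278543-151278792, minus strand).
P2RY12: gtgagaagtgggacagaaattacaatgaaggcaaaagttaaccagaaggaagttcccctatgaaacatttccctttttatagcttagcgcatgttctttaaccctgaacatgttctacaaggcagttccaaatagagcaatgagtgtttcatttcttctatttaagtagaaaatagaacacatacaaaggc
P2RY13: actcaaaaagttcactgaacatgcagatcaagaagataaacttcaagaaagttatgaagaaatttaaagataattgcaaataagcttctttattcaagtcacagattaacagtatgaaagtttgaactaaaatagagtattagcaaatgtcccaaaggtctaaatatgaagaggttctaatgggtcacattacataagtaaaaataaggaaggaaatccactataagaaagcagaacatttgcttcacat
ADORA3: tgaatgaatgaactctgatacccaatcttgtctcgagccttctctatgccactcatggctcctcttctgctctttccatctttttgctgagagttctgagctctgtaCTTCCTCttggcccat
P2RY14: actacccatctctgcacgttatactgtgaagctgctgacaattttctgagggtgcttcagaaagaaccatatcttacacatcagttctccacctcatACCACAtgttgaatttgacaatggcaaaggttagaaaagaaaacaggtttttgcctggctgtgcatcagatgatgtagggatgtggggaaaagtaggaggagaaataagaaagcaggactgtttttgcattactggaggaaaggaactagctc

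The P2RY12 and P2RY13 windows were poor in G and C. Over the full 250 bases, G and C made up 36.8% for P2RY12 with 1 CpG and 30% for P2RY13 with 0 CpG, against a median of 58% and 11 CpG over 35116 promoters. The P2RX4 window, which lies wholly in exon sequence and is not printed, stood at the other end with 76% and 27 CpG, as did that of NT5E, which was too low to test, with 75.2% and 28. The window of P2RY14, which was near 0 in both groups, was also below the median, with 42.4% and 1 CpG. ADORA3 had 47.2% with 2 CpG, ENTPD1 45.6% with 5 CpG and P2RX7, which was not called, 53.2% with 4 CpG. The ADORA3 window held the PU.1 core on the minus strand relative to the gene, a match found in 11.2% of all promoters, and the P2RY14 window held the RUNX core, found in 11%. Motif matches differed between the starts of a gene. Another listed start of ENTPD1, not printed, held the RUNX core at -178 and -67, and the other listed start of P2RY14 held none. The AP-1 motif TGANTCA, found in 6.57% of promoters, had no match in the 4 printed windows. A match is a description of the letters and not a binding site.

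Among the P2Y receptors, P2RY12 encodes the ADP receptor that couples to inhibitory G proteins. The gene (ENSG00000169313) lies on chromosome 3 from 151337380 to 151384812 on the minus strand, inside MED12L, a gene read from the other strand. P2RY12 stood at 15.0, 23.5, 22.4 and 32.0 scaled CPM in mono-culture batches 1 to 4 and at 55.2, 57.7, 87.2 and 86.5 in tri-culture. The lowest tri-culture library lay above the highest mono-culture library, and tri-culture libraries 3 and 4 were the highest. The mean rose from 23.2 ± 6.96 to 71.6 ± 17.6 scaled CPM, a 3.10-fold difference (edgeR log2 fold change 1.63 ± 0.22 SE, adjusted p = 0.000114). Within batches the log2 ratio was 1.88, 1.29, 1.96 and 1.44, higher in 4 of 4. In bulk RNA, a change in the share of cells that express a gene and a change in its RNA per cell cannot be told apart.

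P2RY13, a second ADP receptor of the same coupling, is the neighbour of P2RY12 (ENSG00000181631, chromosome 3, 151326312 to 151329548, minus strand, also within MED12L). It stood at 6.54, 8.55, 6.38 and 14.8 scaled CPM in mono-culture and at 28.9, 26.2, 40.2 and 47.2 in tri-culture. As with P2RY12, the groups did not overlap, and library 4 was the highest of the mono-cultures. The mean went from 9.06 ± 3.93 to 35.6 ± 9.84 scaled CPM, 3.98-fold (edgeR log2 fold change 1.99 ± 0.27 SE, adjusted p = 0.000118), with log2 ratios of 2.14, 1.62, 2.66 and 1.68 within batches. The ratio of P2RY12 to P2RY13 in the deposited signal, which is scaled by gene length, was 1.98 to 3.21 in mono-culture and 1.68 to 2.02 in tri-culture, with overlap between the groups. Their coding sequences matched at 56.9% of aligned bases, and the longest run shared was 12 bases (cttttgtgtgtc).

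P2RY14, the receptor for UDP-glucose and related UDP-sugars, lies in the same locus (ENSG00000174944, chromosome 3, 151212117 to 151278467, minus strand). Its counts were 9, 2, 4 and 4 in mono-culture and 2, 14, 4 and 5 in tri-culture, or 19 and 25 in all. With every gene that had a count kept in the test, its log2 fold change was 0.49 ± 0.81 SE (edgeR, adjusted p = 0.765). No difference was detectable at this depth. GPR171, another gene of the locus, had 1 count in mono-culture and 6 in tri-culture.

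The host gene MED12L, a Mediator subunit gene read from the other strand, stood between 0.890 and 1.67 scaled CPM in mono-culture and at 1.84, 1.35, 4.99 and 8.83 in tri-culture. Tri-culture library 2 lay within the mono-culture range, and libraries 3 and 4 were again the highest. MED12L was called higher (edgeR log2 fold change 1.63 ± 0.52 SE, adjusted p = 0.0328), but without tri-culture libraries 3 and 4 its log2 fold change was 0.22 (adjusted p = 0.737). P2RY12 kept its call without those libraries, at a log2 fold change of 1.29. Whether the counting used strand is not given in the sources used here, and no exon of MED12L in GENCODE 29 overlaps an exon of the P2Y receptor genes. P2RY1, an ADP receptor coupled to Gq that lies further along chromosome 3, fell from 20.03 ± 2.67 to 12.9 ± 0.504 scaled CPM (edgeR log2 fold change -0.64 ± 0.14 SE, adjusted p = 0.00327).

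P2RY6 encodes the UDP receptor, known in microglia for triggering phagocytosis (ENSG00000171631, chromosome 11, 73264505 to 73298617, plus strand). It stood at 254, 237, 229 and 245 scaled CPM in mono-culture and at 255, 191, 228 and 268 in tri-culture. The ranges overlapped throughout. The means were 241 ± 10.8 and 235 ± 33.8, and the log2 fold change of -0.03 ± 0.12 SE did not pass (edgeR, adjusted p = 0.876). On the length-scaled signal, the ratio of P2RY12 to P2RY6 averaged 0.379 ± 0.115 in mono-culture, with 0.512 as its highest value, and 1.20 ± 0.270 in tri-culture, with 0.849 as its lowest.

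Of the P2X channels in the set, P2RX4 fell and P2RX7 was not called. P2RX4 encodes the ATP-gated channel that microglia raise in nerve injury (ENSG00000135124, chromosome 12, 121209857 to 121234106, plus strand). It stood at 173, 194, 159 and 135 scaled CPM in mono-culture and at 108, 126, 127 and 107 in tri-culture. Every tri-culture library lay below every mono-culture library, by a narrow gap. P2RX4 fell from 165 ± 24.7 to 117 ± 10.7 scaled CPM, 1.41-fold higher in mono-culture (edgeR log2 fold change -0.50 ± 0.13 SE, adjusted p = 0.00923). Within batches the log2 ratios were -0.67, -0.63, -0.33 and -0.33. The call was lost without batch 1 of both groups (edgeR log2 fold change -0.45, adjusted p = 0.0555) and against a minimum fold of 1.5.

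P2RX7, the low-affinity ATP channel that opens the way to inflammasome activation, lies beside P2RX4 (ENSG00000089041, chromosome 12, 121132819 to 121188032, plus strand). It stood at 59.6, 44.9, 78.2 and 44.9 scaled CPM in mono-culture and at 42.4, 61.0, 59.8 and 62.9 in tri-culture. The groups overlapped, and tri-culture was higher in 2 of 4 batches. The means were 56.9 ± 15.8 and 56.5 ± 9.47, with a log2 fold change of -0.01 ± 0.18 SE (edgeR, adjusted p = 0.971). P2RX4 and P2RX7 share a run of 16 coding bases (actgggactgcaacct), the longest of any pair among the 10 genes, with 40.2% of aligned bases matching.

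ENTPD1 encodes CD39, the enzyme that removes ATP and ADP at the surface (ENSG00000138185, chromosome 10, 95711779 to 95869695, plus strand). It stood at 82.9, 91.6, 93.5 and 98.1 scaled CPM in mono-culture and at 267, 326, 331 and 320 in tri-culture. The libraries of each group lay close together, with a wide gap between the groups. ENTPD1 rose from 91.5 ± 6.35 to 311 ± 29.9 scaled CPM, 3.40-fold (edgeR log2 fold change 1.76 ± 0.11 SE, adjusted p = 2.48e-07), the smallest adjusted p of the 7 tested. The log2 ratio was 1.68, 1.83, 1.83 and 1.71 within batches. Of its exon bases, 6.51% lie under the antisense gene ENTPD1-AS1, which stood at 3.45 ± 1.48 and 7.30 ± 4.48 scaled CPM and was not called (adjusted p = 0.0786). ENTPD1 is also known in endothelial and dendritic cells. The endothelial gene CDH5 had 333 and 401 counts in the 2 groups, and PECAM1, shared by endothelial and myeloid cells, was called higher. Of 9 dendritic genes, 5 were called higher in the same libraries. Among these 5, FCER1A averaged 0.0865 and 87.6 scaled CPM, CD207 0.0876 and 48.3, and CLEC10A 13.9 and 133. ZBTB46 (31.3 and 35.2) and CCR7 were not called, and FLT3 and CLEC9A were too low to test. The part of endothelial and dendritic cells in the level of ENTPD1 was not tested.

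NT5E, the gene of CD73 (ENSG00000135318, chromosome 6, 85449584 to 85495791, plus strand), was close to the limit of detection in both groups. Its counts were 2, 1, 7 and 1 in mono-culture and 0, 6, 6 and 8 in tri-culture, 11 and 20 in all. The count of 0 in tri-culture library 1 allows up to 0.138 scaled CPM (3 counts, counting error only). With every gene that had a count kept, its log2 fold change was 1.08 ± 0.95 SE (edgeR, adjusted p = 0.520). The 2 enzymes thus stood far apart in level in both kinds of culture: on the length-scaled signal, ENTPD1 averaged 22.8 and 78.1 and NT5E 0.0745 and 0.178 in mono-culture and tri-culture.

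Of the adenosine receptors in the set, ADORA3 encodes one that couples to inhibitory G proteins. The gene (ENSG00000282608, chromosome 1, 111499429 to 111503760, minus strand) lies within TMIGD3, with which it shares 18.0% of its exon bases on the same strand. ADORA3 stood at 46.9, 46.7, 44.0 and 28.0 scaled CPM in mono-culture and at 171, 140, 156 and 119 in tri-culture. The groups did not overlap, and library 4 was the lowest in each. It rose from 41.4 ± 9.04 to 146 ± 21.9 scaled CPM, 3.53-fold (edgeR log2 fold change 1.82 ± 0.17 SE, adjusted p = 5.42e-06). Within batches the log2 ratio was 1.86, 1.59, 1.82 and 2.09. TMIGD3, whose reads could in part be counted with it, stood at 211 ± 24.9 and 230 ± 17.9 scaled CPM (edgeR log2 fold change 0.13, adjusted p = 0.481).

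ADORA2A, which couples to stimulatory G proteins, had few counts (ENSG00000128271, chromosome 22, 24417879 to 24442360, plus strand). They were 5, 2, 21 and 2 in mono-culture and 0, 2, 8 and 3 in tri-culture, 30 and 13 in all, and mono-culture library 3 held most of those of its group. Its log2 fold change with every counted gene kept was -0.86 ± 0.84 SE (edgeR, adjusted p = 0.530). Of its exon bases, 56.8% are shared with the read-through gene SPECC1L-ADORA2A, so low values of ADORA2A are uncertain.

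**Figure D2:**
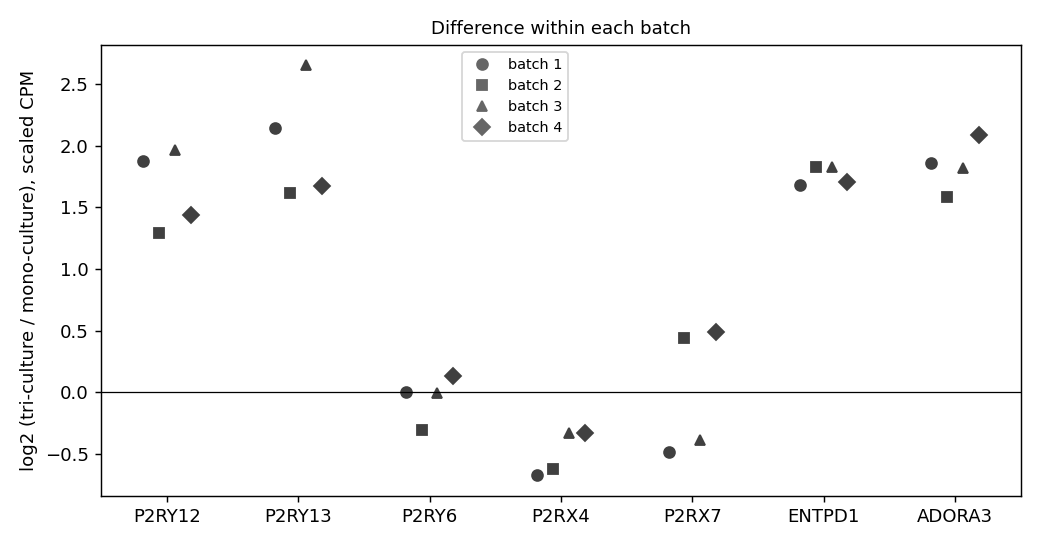
Log2 ratio of tri-culture to mono-culture scaled CPM (vertical axis) within each of the 4 batches (symbols) for the 7 tested genes (horizontal axis). P2RY12, P2RY13, ENTPD1 and ADORA3 lie above 0 in all 4 batches and P2RX4 below 0, while P2RY6 and P2RX7 fall on both sides.

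Compared per length on the deposited signal, the order of the genes differed between the cultures. In mono-culture P2RX4 (74.4 ± 10.5) and P2RY6 (73.1 ± 4.03) led, with overlapping libraries, followed by ADORA3 (58.0 ± 12.6) and P2RX7 (36.4 ± 10.2). P2RY12 (27.6 ± 8.24) and ENTPD1 (22.8 ± 1.51) came next and overlapped, and P2RY13 (11.8 ± 5.12) was the lowest of the tested genes, below every ENTPD1 library. In tri-culture ADORA3 led at 207 ± 31.5, above all libraries of the next gene, P2RY12, at 85.7 ± 21.0. ENTPD1 (78.1 ± 7.88) and P2RY6 (71.7 ± 9.69) each overlapped the gene before them in the order, P2RX4 (53.0 ± 5.35) lay below all P2RY6 libraries, and P2RY13 (46.5 ± 12.6) and P2RX7 (36.3 ± 6.14) followed with overlap. The 3 untested genes were far lower, with 0.271 for P2RY14 in tri-culture the highest of their means.

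**Figure D3:**
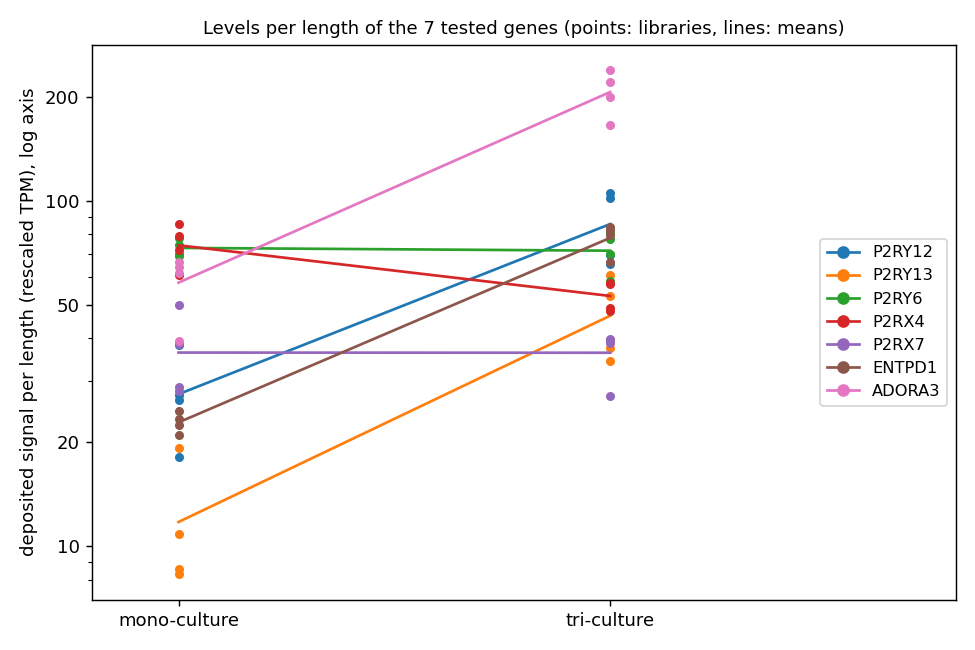
Deposited signal per gene length (vertical log axis) of the 7 tested genes, with a point for each library and lines joining the means of mono-culture and tri-culture. The mean of ADORA3 moves from 58.0 to 207 and becomes the highest. The mean of P2RY12 rises past those of P2RY6 and P2RX4, with libraries that overlap those of P2RY6 in tri-culture.

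Likeness to P2RY12 was measured as the root mean square distance between log2 CPM profiles centred on each gene's mean, over the 8 libraries and 10417 genes with a symbol. The 5 nearest genes were F2R (0.204), ADGRG6 (0.244), ACAP1 (0.245), PTPN14 (0.253) and MSI2 (0.253). P2RY13 ranked 10th at 0.278 and ENTPD1 12th at 0.285. ADORA3 ranked 316th at 0.570, and P2RX4 was at 1.15. All points share the same 8 libraries and the difference between the 2 groups, so the distances are a description.

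The other genes of purinergic signalling moved in both directions. Of 52 further receptors, enzymes, transporters and effectors, 39 were tested, 12 were called higher, 11 lower, 16 were not called and 13 were too low to test. The 23 called made up 59.0% of those tested, against 26.9% over all tested genes. The list was chosen with earlier results of these data known, so the 2 shares are a description. The 39 pathway genes that were tested, called or not, had a median log2 fold change of -0.16, against 0.02 over the whole test. Among P2Y receptors, 2 of 5 tested were higher and 2 lower. P2RY11, an ATP receptor, rose from 4.30 ± 0.427 to 10.9 ± 1.39 scaled CPM (edgeR log2 fold change 1.33 ± 0.17 SE, adjusted p = 7.94e-05), and P2RY8, not known as a nucleotide receptor despite its name, fell from 10.4 ± 2.02 to 2.05 ± 0.913 (-2.34 ± 0.28, adjusted p = 4.77e-05). Of the exon bases of P2RY11, 54.2% are shared on the same strand with PPAN and the read-through gene PPAN-P2RY11, so its values are uncertain. P2RY8 has 2 Ensembl entries in the table, and the one with the most counts was used. P2RX1 was the only other P2X gene high enough to test and was not called (adjusted p = 0.0949).

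Of the enzymes that remove adenosine, ADK and ADA2 were called higher and ADA lower. ADK, adenosine kinase, which returns adenosine to AMP inside the cell, rose from 42.4 ± 5.96 to 134 ± 35.8 scaled CPM (edgeR log2 fold change 1.67 ± 0.18 SE, adjusted p = 1.52e-05). ADA, adenosine deaminase, fell from 42.7 ± 1.71 to 13.6 ± 4.35 (-1.64 ± 0.19, adjusted p = 3.35e-05). ADA2, a secreted adenosine deaminase outside the naming rule, was more abundant and rose from 151 ± 33.3 to 240 ± 40.2 (0.67 ± 0.16, adjusted p = 0.00801), with overlap between the groups. SLC29A1, the equilibrative transporter that carries adenosine across the membrane, rose from 74.2 ± 4.91 to 146 ± 13.9 (0.98 ± 0.11, adjusted p = 1.81e-05). Of 12 tested hydrolases, deaminases and kinases, 4 were higher and 3 lower, and ENTPD7, an intracellular relative of ENTPD1, was among the higher at 12.6 ± 1.98 and 19.5 ± 0.680 scaled CPM (adjusted p = 0.00449).

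Of 7 tested release channels and transporters, 2 were higher and 4 lower. PANX1, the pannexin channel that releases ATP, fell from 62.9 ± 8.39 to 34.2 ± 5.54 scaled CPM (edgeR log2 fold change -0.88 ± 0.14 SE, adjusted p = 0.000449). Of 7 tested genes acting downstream of P2RY12, none was called higher and 2 were lower, a share near the 26.9% called over all tested genes. RAC2, a small GTPase of the cytoskeleton, fell from 139 ± 16.0 to 81.5 ± 6.35 scaled CPM (-0.77 ± 0.11, adjusted p = 0.000196), and KCNK13, the potassium channel that works with P2RY12, stood at 64.3 ± 2.00 and 56.1 ± 2.84 without a call (adjusted p = 0.152).

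Downstream of P2RX7, 3 of 5 tested inflammasome genes were called higher, against 13.9% of all tested genes, although P2RX7 itself was not called. These genes too were listed with earlier results of these data known. None of these 5 was called lower, but PANX1, also listed with the P2RX7 effectors and counted above with the release channels, was. IL18 rose from 1.14 ± 0.373 to 16.6 ± 4.11 scaled CPM (edgeR log2 fold change 3.82 ± 0.26 SE, adjusted p = 4.65e-07) and IL1B from 35.2 ± 14.01 to 96.6 ± 3.19 (1.46 ± 0.26, adjusted p = 0.000897). Both encode cytokines that the inflammasome protease releases in active form. That protease gene, CASP1, rose from 150 ± 11.6 to 242 ± 38.8 scaled CPM (0.69 ± 0.13, adjusted p = 0.00118), while the sensor NLRP3 averaged 113 in both groups (adjusted p = 0.996). PYCARD was listed at 0 in all 8 libraries and gave no value. Against a minimum fold of 1.5, the calls of RAC2, PANX1, CASP1, P2RY1 and ENTPD7 were lost.

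**Figure D4:**
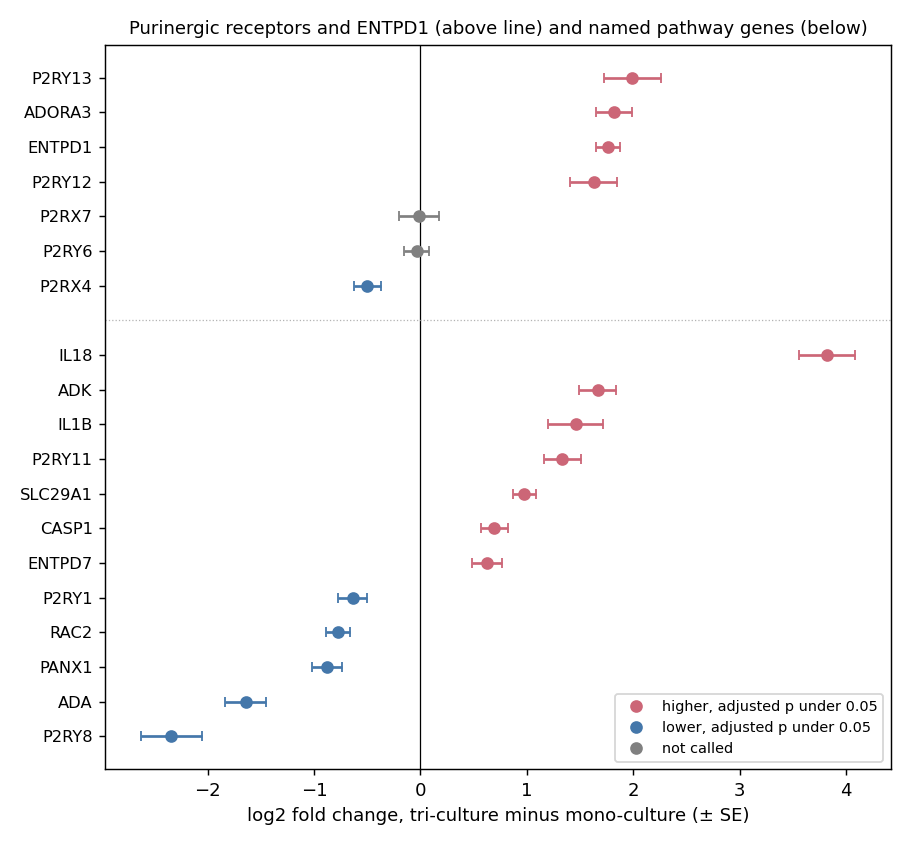
Log2 fold change of tri-culture minus mono-culture (horizontal axis, bars are ± SE) for the 7 tested purinergic receptor and ectonucleotidase genes above the dotted line and 12 other genes of purinergic signalling below it. Red marks genes called higher, blue genes called lower and grey genes not called, and the values run from -2.34 for P2RY8 to 3.82 for IL18.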

How the data were processed

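Per the submitters' processing notes, the authors used HISAT2 2.1.0, featureCounts 2.12.3 and the build GRCh38. Strand use, annotation release and the treatment of overlapping genes were not given in the sources used here. Each deposited count is a whole number of reads. A second table deposited by the authors, named as TPM, holds a signal scaled by gene length whose library totals were rescaled, used to set genes side by side and in 1 alternative test.

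Of 78899 genes, 39751 had a count and 42163 matched a symbol. Filtering with filterByExpr (minimum count 10, minimum total 15) left 16249. Counts scaled with TMM factors were tested with edgeR 4.0.16 in R 4.3.3 (quasi-likelihood, robust, group only; Benjamini-Hochberg over all genes tested, threshold 0.05). A positive fold change means higher in tri-culture. Each SE is approximate and was derived from the fold change and its F statistic, as the absolute change over sqrt(F). The script was tested on simulated counts. Depth was 17037481 to 33363972 counts, and limits for a count of 0 use 3 counts. DESeq2 1.42.0 and limma 3.58.1 served as alternatives. GENCODE 29 gave coordinates and RefSeq promoter sequences.

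The labels give each batch number to 1 library per group, which pairs the libraries. The correlation of same-batch libraries, as deviations from their group means, was 0.185, 0.126, 0.264 and 0.0796. Replicates differed by more than sampling noise (chi-square per degree of freedom 9.21 to 65.1). The genes of the set and the pathway lists were chosen with earlier results of these data known. Named were all 10 genes, up to 12 other called pathway genes of at least 5 CPM with the smallest adjusted p, genes of the P2RY12 locus, and the 5 genes most like P2RY12. Any further gene was picked with its values in view. Some genes that the rule or the marker lists name are not reported here.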

Additional observations from a re-analysis of the deposited data

Results flagged for a closer look

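In groups of 4 libraries, 7 values of 58 groups screened lay further from the other libraries than Dixon's 95% limit allows, in scaled CPM. Chance alone flags about 1 group in 20 with this limit. P2RX7 was low in tri-culture library 1, at 42.4. ADORA3 was low in mono-culture library 4, at 28.0. NT5E (0.209) and ADORA2A (0.626) were high in mono-culture library 3, where they rest on 7 and 21 counts. Among the other genes of the pathway, ADK was high in mono-culture library 1 (51.3), SLC29A1 was high in mono-culture library 2 (81.5) and P2RY11 was low in mono-culture library 4 (3.66). No call of ADORA3, ADK, SLC29A1 or P2RY11 was lost when the library concerned was left out.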

How the results depend on the processing

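Under 23 alternatives (other scaling, filters, DESeq2, limma on the deposited signal, the batch block, a minimum fold, and libraries left out), P2RY12, P2RY13, ENTPD1 and ADORA3 were called higher every time. Their log2 fold changes ran from 1.29 to 1.90, 1.63 to 2.31, 1.70 to 1.87 and 1.67 to 1.92. P2RX4 stayed negative, from -0.59 to -0.40, and kept its call in 21 of 23. Against a minimum fold of 1.5, 0 purinergic genes were called lower, 1890 genes were called in all instead of 4373, and 13 other pathway genes were called, 5 of them lower, instead of 23 and 11. Leaving out libraries gave 0 to 1 purinergic genes lower, with 0 only without batch 1 of both groups. P2RY6 and P2RX7 were called under none of the 23, and their sign differed from that reported in 5 and 11. With the replicate block, 4 purinergic genes were higher and 1 lower, as were 12 and 11 of the other pathway genes, and no call changed for the 7 tested purinergic genes, the 12 pathway genes of the naming rule or MED12L. Over all genes it called 2370 higher and 2363 lower, 4238 of them also called without it. MED12L lost its call in 11 of 23. Depth limits P2RY14, NT5E and ADORA2A, with 31 to 44 counts each over 8 libraries.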

Other observations

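Genes outside the naming rule, chosen after their values were seen, included further nucleotide and adenosine genes that were low in mono-culture. ADORA1, another adenosine receptor that couples to inhibitory G proteins, rose from 0.766 ± 0.157 to 6.91 ± 1.99 scaled CPM (edgeR log2 fold change 3.16 ± 0.28 SE, adjusted p = 4.06e-06), while ADORA2B stood at 3.30 and 2.52 without a call. P2RY10, a lysophosphatidylserine receptor named for its P2Y-like sequence, had no count in mono-culture and 198 counts in tri-culture, which is at least 73.4-fold higher against 3 counts over the group. ENPP1, an ectoenzyme that cuts ATP to AMP and pyrophosphate, had 9 counts in mono-culture and 130 in tri-culture and was called higher.

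In the other direction, SLC28A3, a concentrative nucleoside transporter, fell from 6.04 ± 1.06 to 0.972 ± 0.322 scaled CPM and SLC29A2, an equilibrative one, from 6.28 ± 1.66 to 2.59 ± 0.834. BST1, a cyclic ADP-ribose hydrolase related to CD38, fell from 4.31 ± 1.75 to 1.04 ± 0.211. SLC17A9, the vesicular nucleotide transporter that loads ATP for release, fell from 25.0 ± 3.47 to 14.6 ± 4.68. Most of the listed astrocyte, dendritic cell and monocyte markers were called higher in the same tri-culture libraries, but not all. The monocyte gene CD14 was called lower (151 and 99.8 scaled CPM), and the astrocyte genes SLC1A3 and GLUL were not called. The part of such cells in these values was not tested.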
